A study of Homo sapiens with 18 samples.

Results

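The 52 genes described here had mRNA that was higher after inflachromene (ICM) and lower in replicative senescence than in proliferating IMR90. They were chosen from the mRNA-Seq itself. Reads in the 5′ UTR, CDS and 3′ UTR were scaled to CPM (counts per 1000000 reads), group means were taken, and 1 CPM was added before the logarithm. A member had a log2 ratio of at least 0.8 for ICM-treated over young cells and of at most -0.8 for old over young cells, with a mean of 5 CPM or more in the highest group, and histone symbols beginning with HIST were left out. This picked 52 of 11338 genes at that level, out of 38716 symbols listed. IMR90 is a line of human fetal lung fibroblasts. Young cells were low-passage and proliferating, old cells were high-passage and replicatively senescent, and ICM-treated cells were low-passage cells given inflachromene, an inhibitor of the chromatin proteins HMGB1 and HMGB2 that acts by binding them. Each condition had 3 lysates, made with cycloheximide and split between poly(A) mRNA-Seq and Ribo-Seq, in which the mRNA stretches under ribosomes (footprints) are sequenced. No untreated or vehicle group other than the young cells was used here, and all cells came from 1 line.

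Fibroblasts that stop dividing for good remain metabolically active, and senescent states reached by different routes share their arrest while differing in the genes they express. Reactive small molecules commonly engage the KEAP1 and NRF2 pathway, in which the transcription factor NRF2 switches on enzymes that make NADPH, reduce quinones and carbonyls, and attach glutathione to foreign compounds. Lung fibroblasts also make lipid mediators, guidance cues and matrix proteins that act on neighbouring cells, and these functions are represented among the 52 genes.

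Both departures from the proliferating state carried the loss of cell-cycle mRNA, and no member came from it. Of 30 cell-cycle genes listed, 30 were below the threshold of log2 -0.8 in ICM-treated and 28 in old cells. All 10 fibroblast markers were above 1 CPM in each condition, but their summed mRNA-Seq level was 12681 to 12976 CPM in the ICM-treated libraries against 29496 to 33260 in young and 26019 to 29277 in old libraries. COL1A1 led this sum, with means of 14728 CPM in young, 12779 in old and 3168 in ICM-treated cells. DCN (1434 CPM in young and 1623 in ICM-treated cells) and LUM (147 and 149 CPM) were not lower with ICM, while the other markers were. The summed level of 5 smooth muscle markers was 175 to 186 CPM in ICM-treated, 1081 to 1219 in young and 1465 to 1492 in old libraries. The summed level of 7 epithelial markers was 315 to 340 CPM in young, 231 to 253 in old and 45.6 to 52.4 in ICM-treated libraries, led by KRT18 (means of 282, 222 and 30.7 CPM) with KRT8 and, in young cells, KRT19 behind it, while EPCAM and CDH1 were under 1 CPM in each condition. The summed level of 5 endothelial markers was 56.4 to 64.5 CPM in young, 89.4 to 102.3 in old and 53.9 to 61.5 in ICM-treated libraries, mostly TEK (means of 60.04, 96.8 and 52.5 CPM), with VWF at 3.497 CPM in ICM-treated cells, PECAM1 under 1 CPM in each condition and CDH5 at 0. The leukocyte sum was 56.3 to 67.3 CPM in ICM-treated, 19.8 to 22.1 in young and 30.9 to 33.9 in old libraries, nearly all of it CD68, while PTPRC and CD14 were under 1 CPM on average in each condition and CD3E was at 0. The part of these shifts in the members' levels was not tested, and in bulk samples fewer cells of a type and less RNA per cell cannot be told apart. Coding reads ran from 7902427 to 14144455 per mRNA-Seq library. CDS footprints ran from 46239 to 1718521 per Ribo-Seq library, and young replicate 1 and old replicate 2 stood apart with 34.4% and 15.0% of their reads in the CDS, against 54.7% to 88.8% in the other 7.

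In mRNA-Seq, 11.5% of the 11338 genes met the ICM threshold, 11.3% met the old threshold, and the 52 members that met both were 0.459% of the genes. The reverse pattern, lower with ICM and higher when old, was held by 61 genes. The members' log2 ratios ran from 0.80 to 6.75 for ICM over young (median 1.45) and from -4.63 to -0.80 for old over young (median -1.17), where the medians over all genes were 0.01 and -0.10. A total of 18 members were at a log2 of 2 or more in ICM over young, 4 were at -2 or less in old over young, and 33 were displaced further by ICM than by senescence. The replicates were close, with a median coefficient of variation of 9.14% in young, 13.7% in old and 5.68% in ICM-treated cells. In 52 of 52 members every ICM library lay above every young library and every young library above every old library, an order held by 6.63% of all genes. The rule chose on the means of these same libraries, which favours this order, so neither the means nor the order was tested. When the rule was applied without replicate 1, 2 or 3 of each condition it chose 54, 54 and 57 genes, and in the left-out libraries each of these was again higher in ICM and lower in old than in young. Both thresholds were again passed there by 40, 43 and 39 of them.

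**Figure D1:**
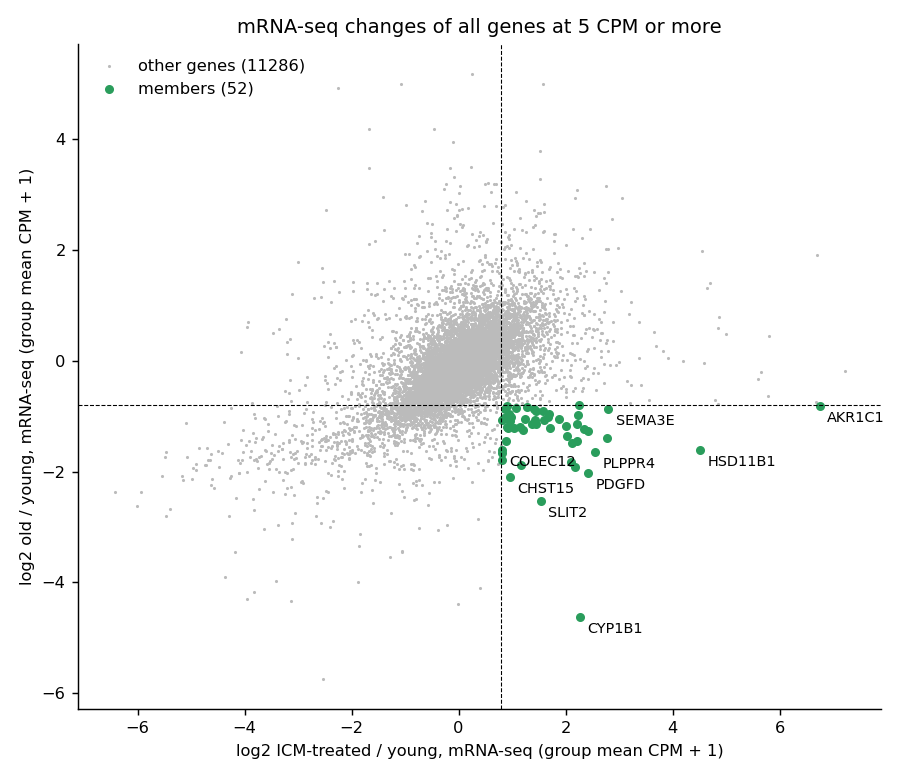
Log2 ratio of ICM-treated over young cells (x axis) against that of old over young cells (y axis) in mRNA-Seq, from group means of CPM plus 1, for all 11338 genes at 5 CPM or more. The dashed lines mark the thresholds of 0.8 and -0.8, and the 52 members (green) fill the lower right corner, with AKR1C1 farthest to the right at 6.75 and CYP1B1 lowest at -4.63.

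**Figure D2:**
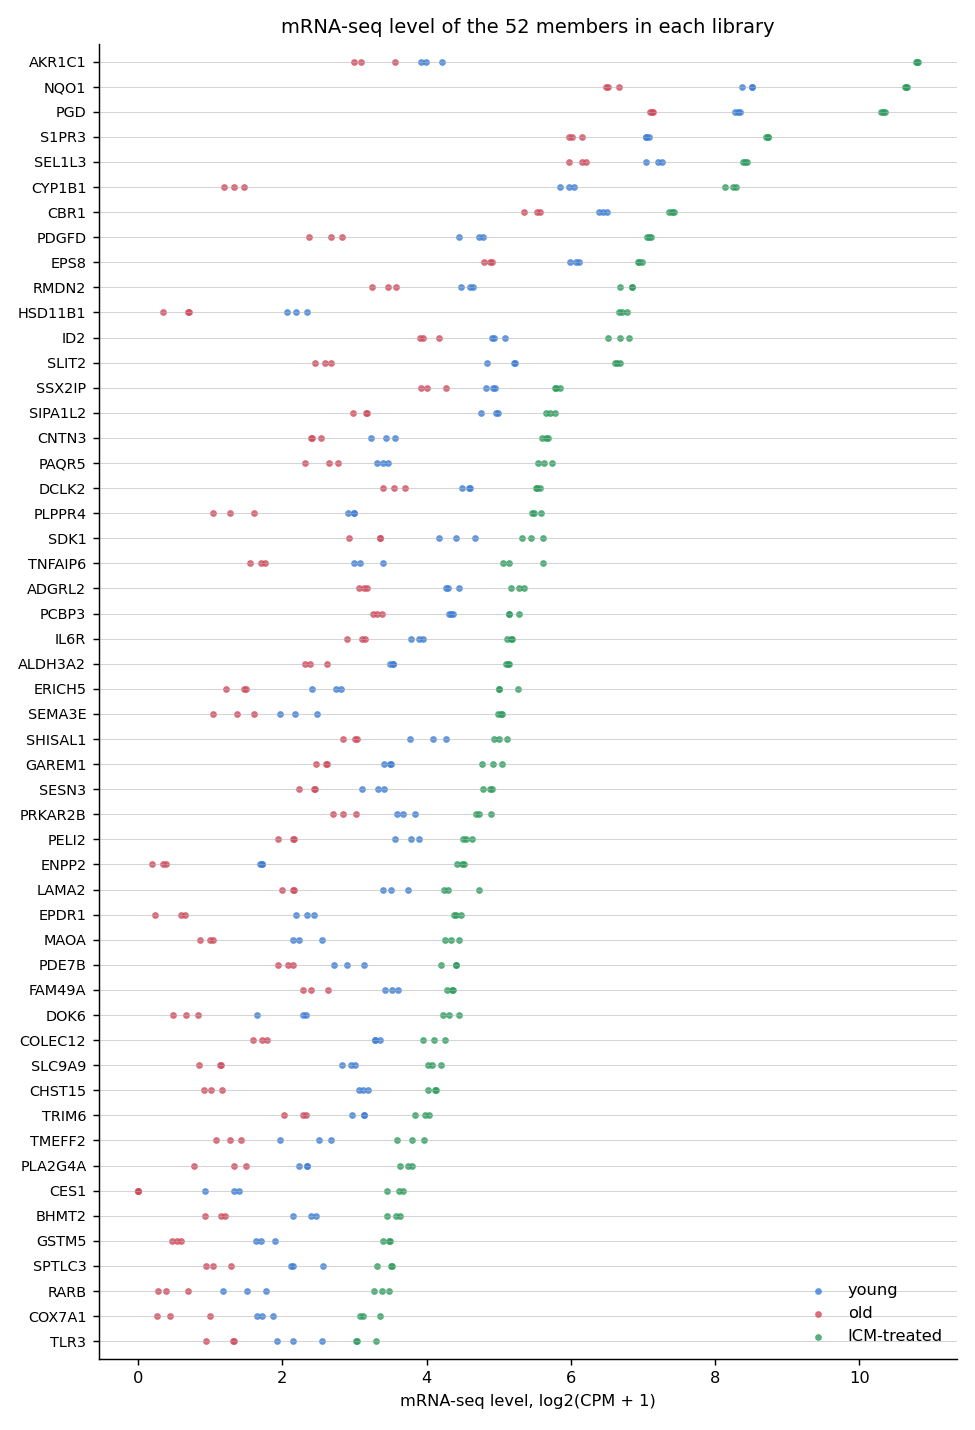
mRNA-Seq level, as log2(CPM + 1), of the 52 members in each of the 9 libraries, ordered by the mean in ICM-treated cells. Each point is 1 library, and for every member the old libraries (red) lie to the left of the young (blue) and the ICM-treated libraries (green) to the right.

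The highest median ICM ratio among the functional groups was that of enzymes of redox, carbonyl and xenobiotic metabolism, a group of 10 members that was put together after the members were known. Their median log2 ratio was 2.10 for ICM over young and -1.23 for old over young. AKR1C1, an aldo-keto reductase that reduces ketosteroids and lipid aldehydes, stood at 14.1, 14.9 and 17.5 CPM in the young libraries, 6.93, 7.53 and 10.8 in the old and 1772, 1805 and 1755 in the ICM-treated libraries. The difference between young and old was thus small in CPM beside the difference between young and ICM-treated cells, a mean ratio of 115-fold, and AKR1C1 sat just inside the old threshold at log2 -0.81. Its neighbour AKR1C2 on chromosome 10 (AKR1C1 at 5005445 to 5025475 on the plus strand and AKR1C2 at 5029967 to 5060223 on the minus strand, GRCh37) is nearly identical in sequence, and stood at 10.7, 13.2 and 14.6 CPM in young, 5.99, 6.63 and 9.15 in old and 1418, 1462 and 1401 in ICM-treated libraries. AKR1C2 missed membership at log2 -0.75 in old over young. How reads were divided between the AKR1C copies is uncertain.

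NQO1, the quinone reductase that is a classical NRF2 target, was displaced to a similar extent in both directions. It was at 365, 331 and 364 CPM in the young libraries, 88.7, 100.3 and 90.1 in the old and 1589, 1606 and 1616 in the ICM-treated libraries (log2 2.18 and -1.91). PGD, which makes NADPH in the pentose phosphate pathway, was at 318, 323 and 308 CPM in the young libraries, 136, 141 and 139 in the old and 1278, 1306 and 1254 in the ICM-treated libraries (log2 2.01 and -1.19). In both genes the 3 conditions were separated by gaps far wider than the spread of the libraries.

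CBR1, a cytosolic carbonyl reductase, was at 89.7, 86.4 and 83.1 CPM in the young libraries, 46.8, 45.3 and 39.8 in the old and 168, 163 and 172 in the ICM-treated libraries. ALDH3A2, the fatty aldehyde dehydrogenase of the endoplasmic reticulum, was at 10.6, 10.5 and 10.2 CPM in the young libraries, 3.99, 4.21 and 5.15 in the old and 33.2, 34.02 and 34.2 in the ICM-treated libraries. GSTM5, a glutathione transferase of the mu class, had means of 2.37 CPM in young, 0.446 in old and 9.94 in ICM-treated cells, and it belongs to a family of similar copies. MAOA, the mitochondrial monoamine oxidase, had means of 3.99 CPM in young, 0.955 in old and 19.3 in ICM-treated cells.

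CYP1B1, a cytochrome P450 that oxidises oestrogens, retinoids and polycyclic hydrocarbons and is a target of the aryl hydrocarbon receptor, had the largest old difference of all members. Its values were 62.1, 56.6 and 65.2 CPM in the young libraries, 1.52, 1.27 and 1.77 in the old and 302, 279 and 313 in the ICM-treated libraries, so that old cells were nearly devoid of it (log2 -4.63). CES1, a carboxylesterase that hydrolyses esters of drugs and lipids, was at 1.65, 0.896 and 1.52 CPM in young and 11.3, 11.7 and 9.901 in ICM-treated libraries, and no read was counted in the 3 old libraries. HSD11B1, the reductase that regenerates active cortisol from cortisone inside the cell, was at 3.54, 3.17 and 4.06 CPM in the young libraries, 0.609, 0.636 and 0.266 in the old and 104, 109 and 100.2 in the ICM-treated libraries. Its ICM mean was 28.99-fold the young mean, second among the members to AKR1C1.

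Among 22 genes of a list of NRF2 targets and redox enzymes at 5 CPM or more, 20 met the ICM threshold, against 11.5% of all genes, while 5 met the old threshold, against 11.3%, and 3 met both (AKR1C1, NQO1 and PGD). Of 17 xenobiotic enzymes, 12 met the ICM threshold and 5 the old threshold, with 3 meeting both (CYP1B1, CES1 and ALDH3A2). Membership thus separated a minority of these enzymes from others that met the ICM threshold and missed the old threshold. Missing it did not mean no difference, since the median log2 ratio of the 22 genes for old over young was -0.65. HMOX1, the haem oxygenase, had means of 35.3 CPM in young, 21.3 in old and 1006 in ICM-treated cells. It was lower in old cells by less than the threshold asked (log2 -0.71). GCLM, a subunit of the enzyme of glutathione synthesis, had means of 67.0, 63.9 and 483 CPM (log2 -0.07 for old over young). Both lists were written with earlier results of these data known.

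Because several of these enzymes are known NRF2 targets, the members' promoters were searched for its motif and for 8 others. Promoter sequence from RefSeq (GRCh38.p14, from 250 bases before to 50 after the start) was matched for 40 of the 52 members. The core of the antioxidant response element, to which NRF2 binds with small MAF proteins, was searched on both strands as TGACNNNGC. It was present in 6 of 40 members (15.0%) and in 13.6% of all 27305 promoters and 15.1% of the 9082 of genes at 5 CPM or more, with no match in NQO1 or AKR1C1. The matches in enzymes of this group are shown in windows of 29 bases with the motif in capitals, read along the strand of the gene.

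PGD (chr1:10398853-10398881, + strand): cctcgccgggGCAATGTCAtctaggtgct
CBR1 (chr21:36069855-36069883, + strand): tgcgggttctGCAAAGTCAggctagctgg
GSTM5 (chr1:109712082-109712110, + strand): ctgggcgcccTGACCTCGCtcccggaacc

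The motif was in the reverse orientation in PGD and CBR1 and forward in GSTM5, at 201, 159 and 159 bases before the start. The other members with a match were BHMT2, SDK1 and SLIT2. The TATA box (TATAAA) was found in 0 of the 40 member promoters, where 11.95% of all promoters and 5.24% of those of genes at 5 CPM or more held it. The GC box (GGGCGG) was found in 22 of 40 (55.0%), against 44.6% of all promoters and 71.8% of the expressed ones, and the CCAAT box (CCAAT) in 9 of 40 (22.5%), against 35.7% and 36.6%. The E-box CACGTG was in 5 of 40 (7.435% of all and 10.36% of expressed promoters), the TEAD motif GGAATG in 5 (14.05% and 10.78%) and the AP-1 motif TGANTCA in 3 (7.76% and 4.18%). The FOXO motif GTAAACA was in 1 (3.41% and 2.24%) and the CRE TGACGTC in 1 (3.63% and 5.83%), the latter in PDE7B, a phosphodiesterase of the second messenger cAMP. Matches describe letters in these windows, and sites farther from the start were not searched.

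A second group of 6 members makes, breaks down or senses lipid mediators, with a median log2 ratio of 1.96 for ICM over young and -1.14 for old over young. S1PR3, a receptor for sphingosine 1-phosphate, was at 135, 131 and 131 CPM in the young libraries, 61.9, 63.8 and 69.9 in the old and 417, 424 and 425 in the ICM-treated libraries. ENPP2 encodes autotaxin, the secreted enzyme that makes lysophosphatidic acid, and was at 2.28, 2.29 and 2.23 CPM in the young libraries, 0.304, 0.141 and 0.266 in the old and 21.9, 20.4 and 21.5 in the ICM-treated libraries. PLPPR4, a membrane protein related to lipid phosphate phosphatases, was at 6.96, 6.96 and 6.48 CPM in the young libraries, 1.42, 1.06 and 2.04 in the old and 47.1, 42.9 and 43.98 in the ICM-treated libraries.

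The ICM means of these 3 genes were 3.19-fold, 9.39-fold and 6.57-fold those of young cells. PLA2G4A, the cytosolic phospholipase that frees arachidonic acid from membranes, had means of 3.94 CPM in young, 1.35 in old and 12.2 in ICM-treated cells. SPTLC3, a subunit of the enzyme that starts sphingolipid synthesis, had means of 3.91 CPM in young, 1.13 in old and 9.91 in ICM-treated cells. PAQR5, a membrane progestin receptor, was at 9.997, 8.97 and 9.51 CPM in the young libraries, 3.96, 5.27 and 5.8003 in the old and 45.7, 52.3 and 48.5 in the ICM-treated libraries, and with AKR1C1 it lay closest to the old threshold, at log2 -0.80.

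Genes of secreted signals, matrix and the cell surface made up 10 members, with median log2 ratios of 1.46 and -1.33. PDGFD, a platelet-derived growth factor that acts on mesenchymal cells, was at 20.8, 26.4 and 25.4 CPM in the young libraries, 5.38, 4.17 and 6.11 in the old and 137, 135 and 132 in the ICM-treated libraries. SLIT2, the secreted ligand of ROBO receptors in axon and cell guidance, was at 27.7, 36.4 and 36.1 CPM in the young libraries, 4.47, 5.02 and 5.402 in the old and 102, 97.1 and 98.6 in the ICM-treated libraries (log2 1.54 and -2.53). SEMA3E, a semaphorin that signals through plexin D1, was at 2.91, 3.53 and 4.56 CPM in the young libraries, 2.05, 1.58 and 1.06 in the old and 31.6, 30.8 and 32.1 in the ICM-treated libraries.

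Of 26 axon guidance genes at 5 CPM or more, 3 met the ICM threshold (11.5% of all genes) and 7 the old threshold (11.3%), and SLIT2 and SEMA3E met both (0.459%). EPDR1, an ependymin-related lysosomal and secreted protein, was at 4.05, 4.41 and 3.58 CPM in the young libraries, 0.507, 0.566 and 0.177 in the old and 20.3, 19.8 and 21.3 in the ICM-treated libraries, and in the annotation it shares 422 exon bases with another coding gene on the same strand. LAMA2, the laminin alpha 2 chain of basement membranes, had means of 10.8 CPM in young, 3.29 in old and 20.7 in ICM-treated cells. The other members of the group were adhesion molecules and membrane proteins.

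CNTN3, a contactin, had means of 9.69 CPM in young, 4.45 in old and 49.1 in ICM-treated cells, and SDK1, a homophilic adhesion protein known from synapses, 20.6 CPM in young, 8.35 in old and 43.2 in ICM-treated cells. ADGRL2, an adhesion receptor of the latrophilin family, had means of 19.2 CPM in young, 7.72 in old and 37.5 in ICM-treated cells. CHST15, a sulfotransferase acting on chondroitin sulfate, was one of 4 members past log2 -2 in old over young, with means of 7.72 CPM in young, 1.05 in old and 16.02 in ICM-treated cells. TMEFF2, a transmembrane protein with follistatin-like domains, had means of 4.32 CPM in young, 1.404 in old and 12.8 in ICM-treated cells.

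Genes of innate immunity formed a group of 6 with the smallest median ICM ratio, log2 0.89, beside a median of -1.26 for old over young. TNFAIP6 (TSG-6), a secreted hyaluronan-binding protein of inflamed tissue, had the highest ICM ratio of the group (log2 2.13), followed by IL6R (log2 1.27). TNFAIP6 was at 9.49, 6.96 and 7.45 CPM in the young libraries, 1.93, 2.26 and 2.39 in the old and 34.3, 47.99 and 32.4 in the ICM-treated libraries. PELI2, an E3 ubiquitin ligase of Toll-like and interleukin-1 receptor signalling, was at 10.8, 12.8 and 13.9 CPM in the young libraries, 3.45, 3.46 and 2.83 in the old and 21.7, 22.4 and 23.7 in the ICM-treated libraries. COLEC12, a scavenger receptor with a collagen-like stalk and a lectin domain, was at 9.24, 8.77 and 8.72 CPM in the young libraries, 2.03, 2.29 and 2.46 in the old and 16.2, 18.2 and 14.5 in the ICM-treated libraries. PELI2 and COLEC12 were the members nearest to the ICM threshold, at log2 0.81 and 0.80, with old differences of -1.67 and -1.60.

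IL6R, the receptor subunit that binds interleukin-6, had means of 13.7 CPM in young, 7.28 in old and 34.6 in ICM-treated cells. TLR3, the endosomal sensor of double-stranded RNA, had means of 3.69 CPM in young, 1.301 in old and 7.71 in ICM-treated cells. TRIM6, a ubiquitin ligase of the interferon response, had means of 7.46 CPM in young, 3.64 in old and 14.5 in ICM-treated cells, and it shares 1158 exon bases with the read-through gene TRIM6-TRIM34. Of 10 chemokine and interleukin genes at 5 CPM or more, 4 met the ICM threshold (11.5% of all genes), 4 the old threshold (11.3%) and 0 both (0.459%), and of 22 interferon-stimulated genes the numbers were 4, 3 and 0.

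The 10 members of intracellular signalling and the cytoskeleton had median log2 ratios of 1.03 and -0.96. EPS8, which couples growth factor receptors to actin capping, was at 62.5, 66.1 and 68.3 CPM in the young libraries, 28.5, 26.9 and 29.1 in the old and 122, 126 and 121 in the ICM-treated libraries. SIPA1L2, a GTPase-activating protein of the RAP family, was at 26.1, 30.1 and 30.7 CPM in the young libraries, 8.02, 6.86 and 7.97 in the old and 49.5, 51.5 and 54.1 in the ICM-treated libraries. SSX2IP, a protein of centriolar satellites and cell junctions, was at 29.2, 29.96 and 27.4 CPM in the young libraries, 14.2, 18.3 and 15.1 in the old and 53.9, 56.5 and 54.4 in the ICM-treated libraries. In each of these genes ICM-treated cells were higher than young cells by less than 2.0-fold.

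The second messenger cAMP was represented by a pair of members. PRKAR2B, a regulatory subunit of protein kinase A, was at 11.01, 11.7 and 13.3 CPM in the young libraries, 5.48, 6.15 and 7.08 in the old and 24.8, 25.6 and 28.7 in the ICM-treated libraries. PDE7B, a phosphodiesterase that degrades cAMP, was at 5.57, 6.46 and 7.72 CPM in the young libraries, 3.21, 2.83 and 3.44 in the old and 20.1, 20.2 and 17.4 in the ICM-treated libraries. Of 19 genes of prostaglandin and cAMP signalling, 10 met the ICM threshold (11.5% of all genes), 5 the old threshold (11.3%) and these 2 both (0.459%).

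DOK6 and GAREM1, adaptors of receptor tyrosine kinases, had ICM means 5.74-fold and 2.91-fold those of young cells. SESN3, a sestrin that restrains mTORC1 and responds to FOXO factors, had means of 8.71 CPM in young, 4.19 in old and 27.99 in ICM-treated cells. Of 22 FOXO and quiescence targets, 6 met the ICM threshold (11.5% of all genes), 3 the old threshold (11.3%) and SESN3 alone both (0.459%). In the other direction, 6 of the 22 were higher in old than in young cells by log2 0.8 or more. DCLK2, a microtubule-binding kinase, had means of 22.7 CPM in young, 10.7 in old and 45.5 in ICM-treated cells. FAM49A, an older symbol in the files for a gene related to regulators of RAC1, had means of 10.5 CPM in young, 4.45 in old and 19.2 in ICM-treated cells.

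Members that regulate genes were ID2, RARB and PCBP3. ID2, an inhibitor of basic helix-loop-helix factors that BMP signals induce, had means of 30.5 CPM in young, 15.2 in old and 101.04 in ICM-treated cells. RARB, the retinoic acid receptor beta, which is itself a retinoic acid target, was at 1.27, 1.85 and 2.42 CPM in the young libraries, 0.304, 0.212 and 0.6199 in the old and 10.1, 9.43 and 8.69 in the ICM-treated libraries. Of 21 genes of retinoid and steroid metabolism, 8 met the ICM threshold (11.5% of all genes), 9 the old threshold (11.3%), and RARB and HSD11B1 both (0.459%). PCBP3, a poly(C)-binding RNA-binding protein, had means of 19.2 CPM in young, 8.95 in old and 35.5 in ICM-treated cells.

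The remaining 7 members had median log2 ratios of 1.24 and -1.14. SEL1L3, a membrane protein with SEL1-type repeats, was at 152, 147 and 130.2 CPM in the young libraries, 72.8, 70.1 and 61.8 in the old and 339, 335 and 346 in the ICM-treated libraries. ERICH5, whose function is not well described, was at 4.302, 5.73 and 5.999 CPM in the young libraries, 1.83, 1.77 and 1.33 in the old and 31.1, 30.9 and 37.3 in the ICM-treated libraries. SLC9A9, a sodium-proton exchanger of endosomes, had means of 6.62 CPM in young, 1.07 in old and 16.1 in ICM-treated cells. COX7A1, a subunit of cytochrome c oxidase, BHMT2, a methyltransferase of homocysteine, SHISAL1 and RMDN2, which is taken up again below, completed the set, and the first 3 had ICM means 3.45-fold, 2.64-fold and 2.02-fold those of young cells.

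Genes just outside the thresholds had nearly the same pattern. For the ICM threshold these included LSAMP and ST6GALNAC3, with log2 ratios of 0.78 and 0.79 over young. LSAMP, a neural adhesion protein, was at 15.2, 15.2 and 11.3 CPM in young, 3.25, 3.98 and 3.72 in old and 26.1, 24.8 and 23.2 in ICM-treated libraries. ST6GALNAC3, a sialyltransferase, was at 3.42, 2.64 and 2.52 CPM in young, 0.609, 0.141 and 0.266 in old and 5.21, 7.35 and 4.43 in ICM-treated libraries. The nearest members on the other side were COLEC12, PELI2 and SIPA1L2, at 0.80, 0.81 and 0.81.

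For the old threshold the nearest outside were SLC40A1, POT1 and IL18, at log2 -0.78, -0.79 and -0.79. SLC40A1, the iron exporter ferroportin, was at 9.62, 9.25 and 6.97 CPM in young, 4.26, 4.81 and 4.69 in old and 276, 276 and 275 in ICM-treated libraries. POT1, a telomere-binding protein, was at 13.2, 15.2 and 14.03 CPM in young, 8.22, 8.48 and 6.64 in old and 33.3, 30.6 and 28.9 in ICM-treated libraries. IL18, an interleukin, was at 0.506, 1.16 and 1.74 CPM in young, 0.304, 0.306 and 0.0886 in old and 5.37, 4.62 and 5.44 in ICM-treated libraries. PAQR5, AKR1C1 and SSX2IP lay just inside, at -0.80, -0.81 and -0.82.

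Footprints were the readout that the rule had not used, although they came from the same lysates. The members' CDS footprints, summed, stood at 3145, 2156 and 2055 CPM in the young libraries, 866, 2364 and 1029 in the old libraries and 10097, 10499 and 8597 in the ICM-treated libraries. Every ICM-treated library was above every young library, while old replicate 2 lay inside the range of the young libraries. That library held only 129 member footprints in the CDS among 54708, and the other 2 old libraries were below every young library. AKR1C1, NQO1 and PGD supplied most of the sum, and without them it was 1308, 874 and 735 CPM in young, 358, 871 and 395 in old and 2823, 2583 and 1741 in ICM-treated libraries. In mRNA-Seq the same 49 genes summed to 958 to 977 CPM in young, 383 to 385 in old and 2897 to 2943 in ICM-treated libraries.

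**Figure D3:**
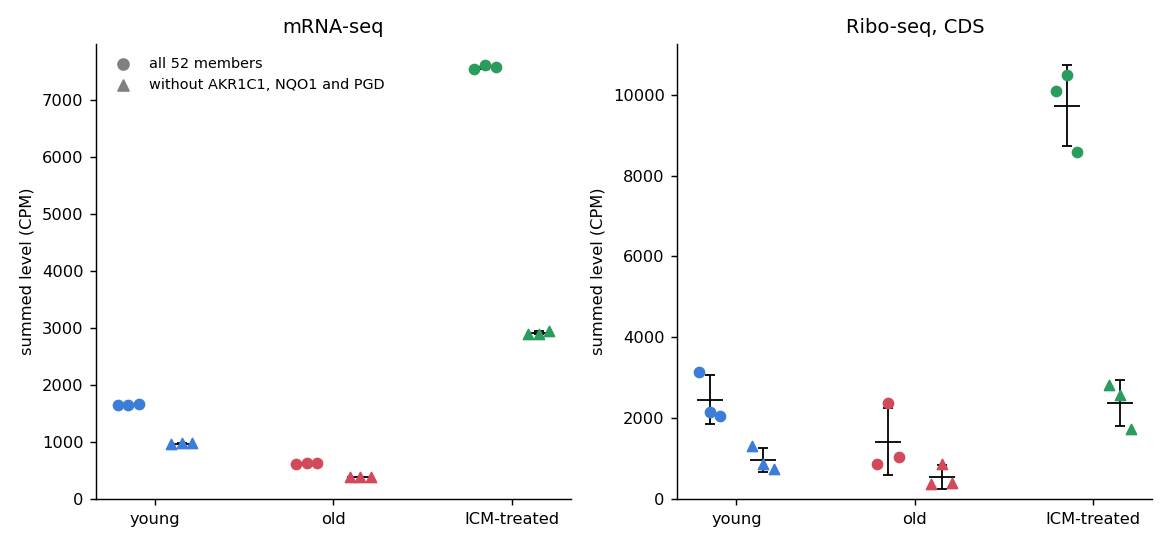
Summed level in CPM of the 52 members (circles) and of the 49 without AKR1C1, NQO1 and PGD (triangles) in each library, for mRNA-Seq (left) and CDS footprints (right). Horizontal bars are means and error bars SD (n = 3 libraries). The ICM-treated libraries are highest in both assays, and 1 old library, replicate 2, overlaps the young libraries in footprints.

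At this depth most members could not be tested singly. A total of 11 of 52 passed the filter on low counts among 4643 genes tested with edgeR's quasi-likelihood test (two-sided, Benjamini-Hochberg over all genes). Of these, 9 passed the cut in all 3 ICM-treated libraries, and 2 of the 9, HSD11B1 and TNFAIP6, in no young or old library. AKR1C1 (1 young, 1 old and 3 ICM-treated libraries) and SLIT2 (2, 0 and 2) also needed their ICM-treated libraries to pass. Passing itself thus favoured genes high with ICM, and the rises of these genes were in part set by the filter. In ICM-treated against young cells, 11 of the 11 rose and 0 fell, against 13.7% of all genes that rose and 12.9% that fell. In old against young cells 5 fell (NQO1, PGD, CYP1B1, EPS8 and SLIT2) and 0 rose, against 17.0% of all genes that fell and 19.3% that rose. In ICM-treated against old cells 11 rose and 0 fell, against 5.79% of all genes that rose and 7.62% that fell. Both ICM counts include HSD11B1, TNFAIP6, AKR1C1 and SLIT2, so the shares of all genes are not a like comparison for them. With no filter all 52 were tested among 13714 genes, and 17 rose with ICM over young (3.97% of all genes), 12 fell in old (7.29%) and 28 were higher with ICM than in old (2.01%). Without young replicate 1 and old replicate 2, the counts were 16, 7 and 20 of 28 tested, beside 7.62%, 12.4% and 3.29% of 8113 genes.

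Between the 2 arrested states, the largest footprint differences among the tested members were in CYP1B1 (log2 5.81, SE 0.39, ICM-treated against old) and AKR1C1 (log2 5.61, SE 0.40). AKR1C1 had needed its ICM-treated libraries to pass the filter. CYP1B1 footprints were at 129, 67.1 and 68.1 CPM in young, 4.78, 91.4 and 8.56 in old and 507, 595 and 389 in ICM-treated libraries. Old replicate 2 again stood above the other old libraries, with 5 footprints. They rose with ICM (log2 2.84, SE 0.29, edgeR adjusted p = 1.44e-09) and fell in old cells (log2 -2.96, SE 0.43, edgeR adjusted p = 1.72e-06), a fall that DESeq2 did not call (log2 -1.86, adjusted p = 0.256). NQO1 footprints were at 717, 581 and 594 CPM in young, 139, 530.1 and 197 in old and 2417, 2786 and 2336 in ICM-treated libraries. They rose with ICM (log2 2.04, SE 0.22, edgeR adjusted p = 5.43e-09) and fell in old cells (log2 -1.51, SE 0.24, edgeR adjusted p = 7.47e-06).

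PGD footprints were at 882, 671 and 699 CPM in young, 338, 676 and 415 in old and 2555, 2937 and 2919.6 in ICM-treated libraries. They rose with ICM (log2 1.94, SE 0.19, edgeR adjusted p = 4.00e-10), and the fall in old cells was smaller (log2 -0.68, SE 0.19, edgeR adjusted p = 0.00525) and was not called without old replicate 1. SLIT2 had 6, 35 and 71 footprints in young, 6, 0 and 2 in old and 31, 3 and 5 in ICM-treated libraries, so that 8 footprints in all remained in old cells. It fell in old cells (log2 -3.61, SE 0.56, edgeR adjusted p = 4.04e-06), and its rise with ICM was only just past the threshold (log2 1.15, SE 0.43, edgeR adjusted p = 0.0453) and was lost in 10 of 17 alternative analyses, among them leaving out young replicate 2 or 3, any 1 old replicate or ICM replicate 1. EPS8 footprints were at 147, 86.1 and 77.97 CPM in young, 45.4, 54.8 and 42.8 in old and 199.96, 127 and 173 in ICM-treated libraries. They rose with ICM (log2 1.06, SE 0.30, edgeR adjusted p = 0.00722) and fell in old cells (log2 -0.78, SE 0.26, edgeR adjusted p = 0.0192), calls that were lost in 6 and 8 of 17 alternatives. Among these were leaving out young replicate 2, young replicate 3 or ICM replicate 1 for the rise, and young replicate 2, young replicate 3, old replicate 1 or old replicate 3 for the fall. Without ICM replicate 1 the difference of EPS8 between ICM-treated and old cells was not called either.

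For the other 6 tested members the rise with ICM was called and the old difference was not. AKR1C1 footprints were at 239, 29.7 and 27.2 CPM in young, 31.4, 286 and 22.8 in old and 2302, 2193 and 1600.4 in ICM-treated libraries. They rose with ICM (log2 5.84, SE 0.40, edgeR adjusted p = 2.11e-13) while the old difference was positive and not called (log2 0.23, SE 0.50, edgeR adjusted p = 0.746). AKR1C2 and AKR1C3, which are not members, had nearly the same footprint changes. These were log2 5.85 and 5.89 with ICM over young, and 0.22 and 0.23 in old over young. Some AKR1C1 footprint counts were not whole, and how footprints were divided between the AKR1C copies is uncertain. HSD11B1 had 1, 1 and 9 footprints in young, 3, 1 and 4 in old and 34, 12 and 7 in ICM-treated libraries, and it rose with ICM (log2 5.02, SE 0.60, edgeR adjusted p = 4.62e-08), having entered the test through its ICM-treated libraries alone. With 11 footprints in young and 8 in old cells, a difference between these was not detectable at this depth (log2 -0.17, SE 0.86, edgeR adjusted p = 0.898).

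S1PR3 was the other tested member with a positive footprint difference in old cells. Its footprints were at 91.9, 33.6 and 36.7 CPM in young, 34.1, 91.4 and 53.1 in old and 133, 203 and 281 in ICM-treated libraries. They rose with ICM (log2 2.21, SE 0.37, edgeR adjusted p = 2.24e-05), while the old difference was positive and not called (log2 0.30, SE 0.34, edgeR adjusted p = 0.506). The mRNA of S1PR3 was 2.03-fold lower in old than in young cells. Whether the footprint and mRNA differences diverged was not tested, because the mRNA values had chosen the gene.

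CBR1 rose with ICM (log2 1.23, SE 0.26, edgeR adjusted p = 3.97e-04) with an old difference near 0 (log2 -0.17, SE 0.23, edgeR adjusted p = 0.582). TNFAIP6 had 1, 19 and 40 footprints in young, 14, 2 and 8 in old and 22, 8 and 6 in ICM-treated libraries, and it rose with ICM (log2 2.06, SE 0.47, edgeR adjusted p = 9.80e-04), again after passing the filter through the ICM-treated libraries alone. SEL1L3 also rose (log2 1.49, SE 0.35, edgeR adjusted p = 0.00154). The rise was not called without ICM replicate 1 for CBR1 and SEL1L3, nor without young replicate 3 for SEL1L3 and TNFAIP6 or young replicate 2 for TNFAIP6. The old differences of TNFAIP6 and SEL1L3 were negative but were not called (log2 -1.05, SE 0.49, edgeR adjusted p = 0.0868 and log2 -0.74, SE 0.33, edgeR adjusted p = 0.0744).

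**Figure D4:**
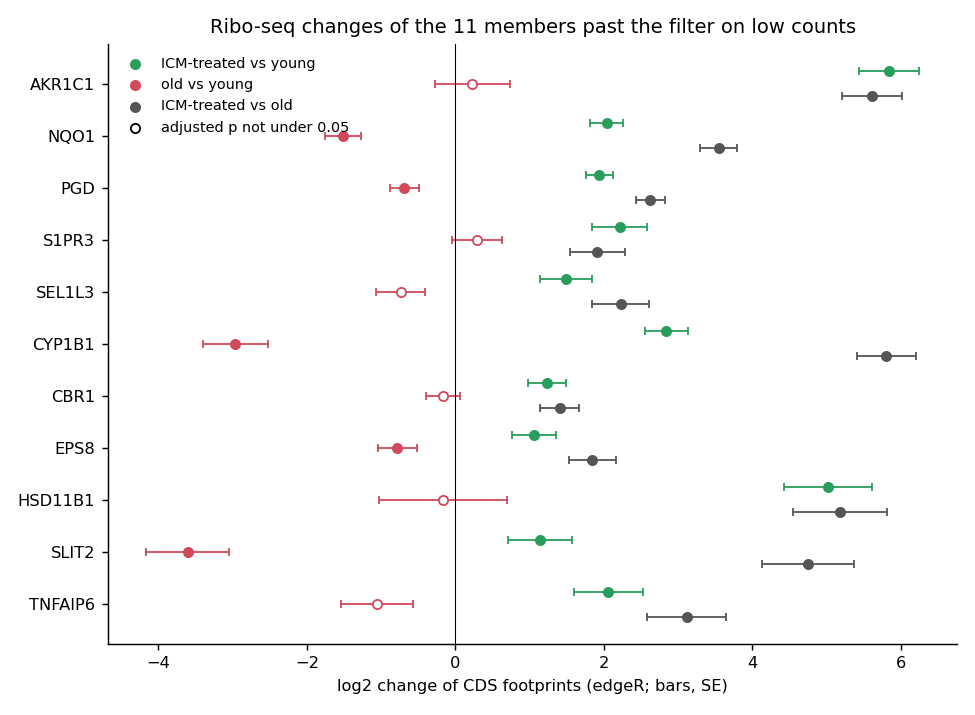
Log2 change of CDS footprints (x axis) with its SE for the 11 members past the filter on low counts, for ICM-treated against young (green), old against young (red) and ICM-treated against old cells (grey). Open points were not called at an adjusted p under 0.05. All green and grey points lie to the right of 0, and 5 of the 11 red points are filled, each to the left of 0.

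Of the 41 members that did not pass the filter, many were close to unseen by ribosome profiling. Over the ICM-treated libraries 30 of the 52 members had under 10 footprints and 6 had none, and 3 had none in old cells. In the shallowest ICM-treated library a count of 0 allows up to 64.9 CPM. DOK6 had 3 footprints in young and none in the other conditions. PAQR5, PELI2, SHISAL1, TMEFF2 and COX7A1 were the other members with no footprint in the ICM-treated libraries.

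NRF2 targets and redox enzymes that were not members followed the ICM side of the pattern in footprints. Their calls in old cells went both ways, near the shares of all genes. Of the 19 NRF2 targets and redox enzymes tested that were not members, 19 rose with ICM over young (13.7% of all genes) and 19 with ICM over old (5.79%). These genes, too, had to pass the filter on low counts, which can favour genes high with ICM. AKR1B10, among them, had mRNA-Seq means of 1.48 CPM in young, 0.98 in old and 120 in ICM-treated cells. The list was also written with earlier results known, so the shares of all genes are not a like comparison for these rises. In old against young cells 3 of the 19 fell (17.0% of all genes fell), among them TXNRD1 and, only just, GSR (edgeR adjusted p = 0.0499). The 4 that rose were FTH1, FTL, OSGIN1 and SRXN1 (19.3% of all genes rose). AKR1C2 and AKR1C3 are among the 19, and their footprints may not be separate from those of AKR1C1.

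Where reads lay along a gene was a further measure that the rule had not used, although the same reads entered both. The ratio of 3′ UTR to CDS reads in mRNA-Seq was tested for 43 members among 9401 genes (edgeR, region by condition). In old against young cells, 3 members shifted towards the 3′ UTR (1.65% of all genes) and 1 away from it (0.50%). With ICM, 2 shifted towards the 3′ UTR, 4.65% of the members tested and near the 4.32% of all genes, and 0 away (1.31%). The 2 with ICM were AKR1C1 and NQO1, with log2 shifts of 0.68 (SE 0.20, edgeR adjusted p = 0.0464) and 0.38 (SE 0.10, edgeR adjusted p = 0.0197), and AKR1C1 kept its call in 1 of 12 alternatives and NQO1 in 4 of 12.

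RMDN2, a microtubule-associated protein, owed its place among the members to its 3′ UTR. Its 3′ UTR reads were at 21.01, 17.9 and 19.4 CPM in young, 1.01, 0.919 and 0.886 in old and 93.4, 81.4 and 96.4 in ICM-treated libraries. Its CDS reads were at 2.53, 2.996 and 3.77 CPM in young, 7.92, 8.77 and 6.996 in old and 18.2, 17.7 and 15.5 in ICM-treated libraries, with every old library above every young library. Old cells were therefore lower than young cells in the 3′ UTR and higher in the CDS (log2 ratio of 3′ UTR to CDS -5.72, SE 0.27, edgeR adjusted p = 2.42e-12), and the 3′ UTR supplied 84.8% of RMDN2 reads in young, 82.4% in ICM-treated and 9.46% in old cells. On CDS reads alone RMDN2 had log2 ratios of 2.28 for ICM over young and 1.23 for old over young, and it was the only member of 52 whose CDS level was not lower in old cells.

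In the annotation the 3′ end of RMDN2 (chromosome 2, 38150330 to 38294285, plus strand, GRCh37) meets that of CYP1B1 (38294116 to 38337044, minus strand), and the genes share 96 exon bases on opposite strands. No other coding gene lies between this pair, the closest neighbours among the members. CYP1B1 had fewer reads in both regions in old cells, with CDS reads at 25.6, 24.5 and 24.4 CPM in young, 0.812, 0.636 and 0.177 in old and 123, 123 and 133 in ICM-treated libraries, and 3′ UTR reads at 31.9, 27.3 and 34.7 CPM in young, 0.7104, 0.566 and 1.33 in old and 149.9, 129 and 148 in ICM-treated libraries. The order and size of the differences in the 3′ UTR column were similar in RMDN2 and CYP1B1. Whether the counting used the strand was not stated for these tables, so that reads of the shared stretch cannot be assigned to either gene.

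COLEC12 shifted the other way in old cells (log2 2.61, SE 0.40, edgeR adjusted p = 0.000249). Its CDS reads were at 6.45, 6.698 and 6.19 CPM in young, 0.406, 0.848 and 0.886 in old and 11.6, 14.4 and 11.1 in ICM-treated libraries. Its 3′ UTR reads were at 2.66, 1.98 and 1.95 CPM in young, 1.62, 1.44 and 1.58 in old and 4.16, 3.19 and 2.51 in ICM-treated libraries, so that old libraries were below young ones by less than in the CDS. COLEC12 shares 548 exon bases with a long non-coding RNA gene on the opposite strand. DCLK2 (log2 0.94, SE 0.21, edgeR adjusted p = 0.0141) and NQO1 (log2 0.43, SE 0.11, edgeR adjusted p = 0.0431) had smaller shifts in the same direction, which held in 8 and 2 of 12 alternatives, whereas those of RMDN2 and COLEC12 held in all 12 and 11 that tested them. Of the 52 members, 6 share exon bases with another coding gene and 17 with a long non-coding RNA gene.

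**Figure D5:**
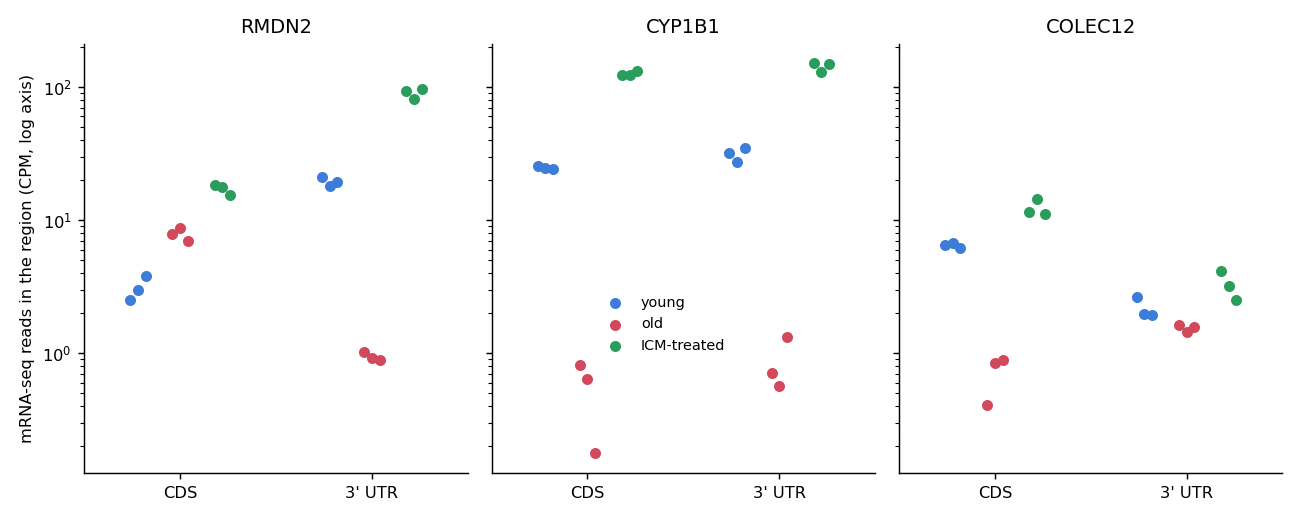
mRNA-Seq reads in the CDS and the 3′ UTR of RMDN2, CYP1B1 and COLEC12, as CPM on a log axis, with 1 point per library (n = 3 per condition). RMDN2 is higher in old than in young cells in the CDS and lower in the 3′ UTR, CYP1B1 is lower in old cells in both, and COLEC12 is lower in old cells mainly in the CDS.

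With the CDS alone, the rule kept 40 of the 52 members. The 12 that left it were AKR1C1, RMDN2, PAQR5, IL6R, SHISAL1, GAREM1, SESN3, PRKAR2B, PDE7B, FAM49A, CHST15 and TRIM6. All but RMDN2 kept their direction in both comparisons and fell short of a threshold on level or size.

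PAQR5 was also unusual in its footprints. Its CDS held 3 footprints in all young, 2 in all old and none in all ICM-treated libraries. Its 3′ UTR held 0.667, 7.17 and 15.3 footprints in young, 46.2, 129 and 54 in old and 4.67, 3.33 and 0 in ICM-treated libraries, where fractions arise from reads divided between features. Scaled to each library's footprints in coding genes, this was 9.49, 9.87 and 8.55 CPM in young, 25.3, 957 and 75.2 in old and 19.9, 38.98 and 0 in ICM-treated libraries.

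Every old library was thus above every young library, and so were ICM replicates 1 and 2. Over all genes, 3′ UTRs held 12.4%, 1.94% and 1.40% of the footprints in coding genes in young libraries. The shares were 3.51%, 14.8% and 4.90% in old and 1.77%, 2.29% and 3.10% in ICM-treated libraries. The highest PAQR5 value was in old replicate 2, one of the libraries of low CDS share. PAQR5 supplied 129 of the 132 footprints that the members had in their 3′ UTRs in that library. The mRNA of the same 3′ UTR was lower in old cells. PAQR5 (chromosome 15, 69591251 to 69700119, plus strand, GRCh37) shares 797 exon bases with KIF23-AS1, a long non-coding RNA gene on the minus strand (69689243 to 69707368). The source of these fragments was not tested.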

How the data were processed

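mRNA-Seq and Ribo-Seq were available for 18 libraries, 3 per condition and assay, with the group and replicate of each read from its title. The authors deposited estimated counts for each gene symbol, split into columns for the 5′ UTR, CDS, 3′ UTR and other transcript classes, not scaled to depth. Part of the values were not whole, which implies that reads were shared out among features. How this was done, whether strand was used and which annotation was counted are not given in the sources used here. The study's methods describe 3 independent replicas, and where cultures were not separate, p-values measure only the spread between these libraries.

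The members, gene lists and tests were chosen with earlier results of these data known, and the functional groups of members were set after the members were seen. The mRNA-Seq levels chose the members and were not tested. CDS footprints, rounded to whole numbers, were tested by the quasi-likelihood functions of edgeR 4.0.16 under R 4.3.3 (TMM scaling, filterByExpr, all 9 Ribo-Seq libraries in 1 fit, Benjamini-Hochberg adjustment, threshold 0.05). The 3′ UTR to CDS ratio was tested in edgeR as the interaction of region and condition with the library as a term, over genes with a mean of at least 10 reads per library in each region. SE, the standard error, refers to log2 values. In edgeR it was derived as the size of the log2 change over the square root of the test's F statistic. It is therefore approximate, most of all for changes near 0. The fits were tested on simulated data. DESeq2 1.42.0 and other settings were alternatives. The study's tool for this step, anota2seq, was not used here.

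All members could be named, and values in every library were given for the 10 highest with ICM, the 10 with the largest difference between ICM-treated and old cells, those called in both Ribo-Seq comparisons, those nearest to a threshold with genes just outside each, and those sharing a list. Some items that these rules pick are not reported here. Positions and overlaps are from GENCODE lifted to GRCh37, a build the submitters' processing notes name, and promoters from RefSeq. In total 51 of 52 symbols matched a current symbol and 1 an older one. Depth was 46239 to 1718521 CDS footprints in Ribo-Seq and 7902427 to 14144455 coding reads in mRNA-Seq, and limits for counts of 0 (3 counts) cover counting error only.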

Additional observations from a re-analysis of the deposited data

Results flagged for a closer look

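Reads in the column for other transcripts of a gene, which no comparison above used, stood above the young level in every ICM-treated mRNA-Seq library for 2 members. For DCLK2 the mean was 1.13 CPM in ICM-treated, 0.578 in young and 0.270 in old cells. For SEL1L3 it was 1.503 CPM in ICM-treated, 0.546 in young and 0.392 in old cells. Neither difference was tested.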

How the results depend on the processing

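The number of members was 52 and moved to 27 with a log2 threshold of 1 and to 104 with 0.6. It was 61 with a pseudocount of 0.5 and 35 with 2, 45 on CDS reads, 41 with TMM and 42 with RLE scaling, which shifted the median old over young ratio by 0.10, and 48 to 56 without 1 replicate of a condition. Footprint calls of the members in ICM-treated against young, old against young and ICM-treated against old cells were 11, 5 and 11. They were 17, 12 and 28 with no filter, 4, 0 and 4 when thinned to the shallowest library, 16, 7 and 20 without the 2 libraries of low CDS share, and 20, 11 and 22 when ICM replicate 3 was also left out, a setting chosen after seeing the data. With DESeq2 the old count was 3, and with only the compared groups 9. Without 1 replicate the counts were 7 to 18, 3 to 9 and 11 to 22, the lowest without young replicate 3 or ICM replicate 1, without old replicate 1 and without old replicate 1, and the highest without ICM replicate 3, without ICM replicate 2 and without ICM replicate 3. The 3′ UTR to CDS calls, 2 with ICM and 4 in old cells, were 0 and 2 with no TMM scaling, 0 and 2 with at least 50 reads, and 0 to 2 and 2 to 4 without 1 replicate. Of 27 footprint calls of single genes, 16 held in every alternative that tested the gene, 11 were lost in at least 1 and 0 changed direction. Whether replicate numbers pair the lysates is not known. Deviations of same-numbered libraries correlated with r of 0.00467 to 0.0557 in Ribo-Seq and -0.0555 to 0.103 in mRNA-Seq. With 3 libraries per group and the low Ribo-Seq depth, these values cannot exclude pairing. With the replicate block the footprint counts were 8, 4 and 11 and the 3′ UTR to CDS counts 2 and 4. Depth limits the footprint results, since 30 members had under 10 footprints in all ICM-treated libraries.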
